A study of Mus musculus with 36 samples.

Results

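The genes described here are 10 genes of heart muscle, measured in whole mouse lung: Nppa, Myl7, Myl4, Myh6, Tnnt2, Tnni3, Actc1, Ryr2, Sln and Pln. They were picked by symbol through the annotation of the array platform, and each had 1 probe set, so they make up 10 of the 19938 genes with a single symbol on the array. Lung RNA of A/J and C3H mice was hybridised to Affymetrix arrays. Both strains were left untreated or were injected with NNK, a tobacco-specific nitrosamine that causes lung tumours in mice, at 100 mg/kg weekly, for 4 weeks in all. Untreated lungs of each strain came from weeks 0, 3, 6, 9 and 12, and NNK-treated lungs from weeks 3, 6, 9 and 12 after exposure, before mature tumours had formed. No transgene or deletion is named, and the age of the mice, the C3H substrain and whether the untreated mice received a vehicle are not stated in the labels. Each of the 18 groups had 2 arrays, 36 in all, which gave 10 untreated and 8 NNK arrays per strain. Whether both arrays of a group are different mice is not stated, so p-values reflect the scatter among these arrays only, and part of it may be technical.

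Heart muscle contracts through sarcomeres, in which myosin motors pull on actin filaments, and the troponin complex makes this pull depend on calcium. Calcium leaves the sarcoplasmic reticulum through the ryanodine receptor and returns through a pump that small membrane proteins such as phospholamban and sarcolipin restrain. In rodents a sleeve of striated muscle of atrial type continues from the left atrium along the pulmonary veins into the lung, so whole lung tissue can contain such muscle. Myl7, Myl4, Nppa and Sln are known as atrial genes, while Myl2 and Myl3 encode the myosin light chains of the ventricle. In RNA from whole tissue, fewer muscle cells and less RNA per muscle cell cannot be told apart.

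The promoter windows of 3 members are shown because these genes had the largest strain differences in each direction (Nppa and Myl7 higher in A/J, Actc1 lower). Each window holds the 250 bases before the transcription start, on the strand of the gene, from RefSeq on GRCm38.p6. Nppa lies at chr4:148000472-148000721 on the plus strand, Myl7 at chr11:5898783-5899032 on the minus strand and Actc1 at chr2:114052876-114053125 on the minus strand. Capitals mark the motifs searched on both strands: the CArG box, which serum response factor binds in many muscle genes, the core GATA of the GATA factors, the MCAT motif CATTCC of the TEAD factors and the TATA box as TATAAA.
Nppa: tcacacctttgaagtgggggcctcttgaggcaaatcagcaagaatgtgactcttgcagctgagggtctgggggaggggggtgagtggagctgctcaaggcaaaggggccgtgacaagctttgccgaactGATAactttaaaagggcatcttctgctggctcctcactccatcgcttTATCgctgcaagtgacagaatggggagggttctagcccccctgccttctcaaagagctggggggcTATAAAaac
Myl7: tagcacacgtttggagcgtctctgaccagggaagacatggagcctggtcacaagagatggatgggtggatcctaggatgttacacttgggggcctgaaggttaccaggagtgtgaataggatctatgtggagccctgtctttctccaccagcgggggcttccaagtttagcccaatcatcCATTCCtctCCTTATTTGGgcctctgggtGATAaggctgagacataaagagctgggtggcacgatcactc
Actc1: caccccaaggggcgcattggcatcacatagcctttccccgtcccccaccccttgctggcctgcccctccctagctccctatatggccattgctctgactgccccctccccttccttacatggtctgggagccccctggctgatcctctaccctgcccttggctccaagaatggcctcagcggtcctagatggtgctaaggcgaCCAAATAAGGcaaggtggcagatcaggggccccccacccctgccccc
A CArG box lay 61 to 52 bases before the start of Myl7 and 47 to 38 bases before that of Actc1, and 1.47% of all 32851 promoter windows held one. Of the 10 windows that the table holds for 9 of the members, 2 had a CArG box and these were the windows of Myl7 and Actc1. The letters GATA stood in 6 of the 10 windows and in 53.6% of all windows, CATTCC in 3 of 10 and in 12.6% of all, and TATAAA in 2 of 10 and in 12.4% of all. TATAAA lay 9 to 4 bases before the start of Nppa. These are matches of letters in a fixed window, and they say nothing about binding.

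Levels are log2(deposited intensity + 16) after quantile normalization of the arrays to each other, and differences are on the same scale. Lung markers were bright in all arrays: Sftpc, the surfactant gene of alveolar type 2 cells, had 13.97 ± 0.05 and Scgb1a1, of club cells, 13.76 ± 0.08 (SD, n = 36). The ventricular light chain genes Myl2 and Myl3 had 8.07 ± 0.20 and 8.04 ± 0.49, while Myh7, the brightest ventricular marker, had 10.09 ± 0.39. Array 2 of untreated A/J at week 0 stood apart, with the skeletal muscle genes Acta1 at 14.31 and Myl1 at 11.49, where the other 35 arrays reached at most 10.10 and 8.28. In that array Sln, which skeletal muscle also expresses, was at 9.25, the highest of all arrays, next to 9.20 in array 1 of untreated A/J at week 6. The cornified skin gene Lor was at 13.65 in the same week 0 array and at 12.74 and 13.59 in both untreated A/J arrays of week 6. These arrays are kept. Strain differences, mean NNK changes and trends of the members were also fitted without week 6 and this week 0 array. Calls or signs that changed are given. The weekly contrasts, pair differences, correlations and the differences of genes that are not members were not repeated without all of these arrays together.

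The 10 genes did not share 1 strain difference. In untreated lung, Nppa, Myl7, Myh6, Sln, Ryr2 and Tnnt2 were higher in A/J than in C3H, Actc1 was lower, and Myl4, Tnni3 and Pln did not pass the test (limma, Benjamini-Hochberg adjusted p under 0.05 over 14953 genes). Thus 7 of 10 were called, where 56.1% of all genes tested were, 19.8% higher and 36.3% lower in A/J. The median difference of the members was 0.41, against -0.04 over all genes tested. All 10 members passed the filter on dim genes, which asked for a mean of at least 7.54. Nppa passed it only through A/J, since its mean over C3H arrays was 7.18 and 16 of 18 C3H arrays lay below that level, so its difference adds no support to the count. Without it, 6 of 9 members were called.

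Nppa encodes atrial natriuretic peptide, a hormone that atrial muscle secretes. Its level in untreated A/J lung ran from 7.98 over a median of 9.37 to 12.40, and in untreated C3H lung from 6.69 over 7.25 to 8.07 (n = 10 arrays each). The ranges overlapped only through array 1 of A/J week 9, and 9 of 10 A/J arrays lay above every C3H array. The difference was 2.56 ± 0.33 (SE, adjusted p = 8.19e-07). No fold is given, because the C3H level is dim and log2(intensity + 16) understates changes from such a level. In NNK-treated lung Nppa ran from 7.88 over 9.70 to 11.06 in A/J and from 6.59 over 6.97 to 7.53 in C3H (n = 8 each). These ranges did not overlap, and the difference was 2.43 ± 0.37 (adjusted p = 9.24e-06). Since Nppa passed the filter on dim genes only through A/J, neither of these adjusted p-values adds support. In each of the 5 untreated and 4 NNK weeks, both A/J arrays of the week lay above both C3H arrays.

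Of the myosin light chain genes, Myl7, the atrial regulatory chain, differed between the strains and Myl4, the atrial essential chain, was not called. Myl7 ran from 10.58 over 11.60 to 12.36 in untreated A/J and from 9.43 over 10.62 to 11.10 in untreated C3H. Here 8 of 10 A/J arrays lay above every C3H array, and the others were again those of week 9. The difference was 1.11 ± 0.16, or 2.17-fold (adjusted p = 2.90e-06), and 1.24 ± 0.18 in NNK-treated lung (adjusted p = 3.94e-06), where the ranges did not overlap. Myl4 had 12.35 ± 0.40 in A/J and 12.22 ± 0.34 in C3H (SD, n = 10 each), with a difference of 0.14 ± 0.13 whose 95% interval was -0.13 to 0.40 (adjusted p = 0.392). In NNK-treated lung the difference of Myl4 was 0.04 ± 0.14 (adjusted p = 0.842).

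Myh6 encodes the alpha myosin heavy chain, the motor of the adult mouse heart. It ran from 10.01 over 10.84 to 11.64 in untreated A/J and from 9.05 over 10.23 to 10.54 in C3H, a difference of 0.80 ± 0.17, or 1.74-fold (adjusted p = 0.000287). The A/J arrays were mostly the higher ones, with 8 of 10 above every C3H array, and in NNK-treated lung the difference was 0.68 ± 0.19 (adjusted p = 0.00389). Myh7, which encodes the closely related beta heavy chain and lies beside Myh6 in the genome, was also higher in A/J, by 0.62 ± 0.04 (adjusted p = 3.20e-12). How far the probe sets of these similar genes read each other's RNA was not tested.

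The troponin genes differed little. Tnnt2, the cardiac tropomyosin-binding subunit, ran from 10.85 over 11.67 to 12.19 in untreated A/J and from 10.50 over 11.35 to 11.61 in C3H, a difference of 0.39 ± 0.13, or 1.31-fold (adjusted p = 0.0142). Without week 6 and the week 0 array that stood apart, the difference was 0.35 and not called (adjusted p = 0.0776). In NNK-treated lung it was 0.33 ± 0.15 and not called (adjusted p = 0.0653), while with the array number as a block it passed (adjusted p = 0.0357). Tnni3, the cardiac inhibitory subunit, had 11.23 ± 0.44 in A/J and 11.04 ± 0.39 in C3H (SD, n = 10 each), and the difference of 0.19 ± 0.14 had a 95% interval of -0.09 to 0.48 (adjusted p = 0.249).

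Actc1, the cardiac alpha actin of the thin filament, was the member with lower levels in A/J. It ran from 10.94 over 11.77 to 12.05 in untreated A/J and from 11.75 over 12.28 to 12.43 in C3H. The C3H arrays were mostly the higher ones, with 5 of 10 A/J arrays below every C3H array. The difference was -0.53 ± 0.10 (adjusted p = 8.93e-05), so Actc1 was 1.44-fold lower in A/J. In NNK-treated lung it was -0.49 ± 0.11 (adjusted p = 0.000774), and 7 of 8 A/J arrays lay below every C3H array. Actins are nearly identical in their protein sequence, and the smooth muscle actin gene Acta2 was also lower in A/J (-0.19 ± 0.05, limma, adjusted p = 0.00256). In the untreated A/J week 0 array that stood apart, Acta1 was at 14.31, where the other arrays reached at most 10.10. Actc1 was at 11.90 there, rank 20 of 36 from the top, and at 11.67 in the partner array. Reading of 1 actin's RNA by another's probe set was not tested.

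Of the calcium-handling members, Ryr2, the calcium release channel, ran from 8.66 over 9.26 to 9.77 in untreated A/J and from 8.21 over 8.93 to 9.13 in C3H. Here 7 of 10 A/J arrays lay above every C3H array, and the difference was 0.42 ± 0.12 (adjusted p = 0.00413). Sln, sarcolipin, ran from 7.54 over 8.68 to 9.25 in A/J and from 7.10 over 8.03 to 8.40 in C3H, a difference of 0.62 ± 0.14, or 1.53-fold (adjusted p = 0.000650). Pln, phospholamban, which smooth muscle also expresses, ran from 8.92 to 10.93 in A/J and from 8.90 to 10.40 in C3H, with 2 of 10 A/J arrays above every C3H array. Its difference of 0.14 ± 0.18 was not called (95% interval -0.23 to 0.50, adjusted p = 0.522).

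**Figure D1:**
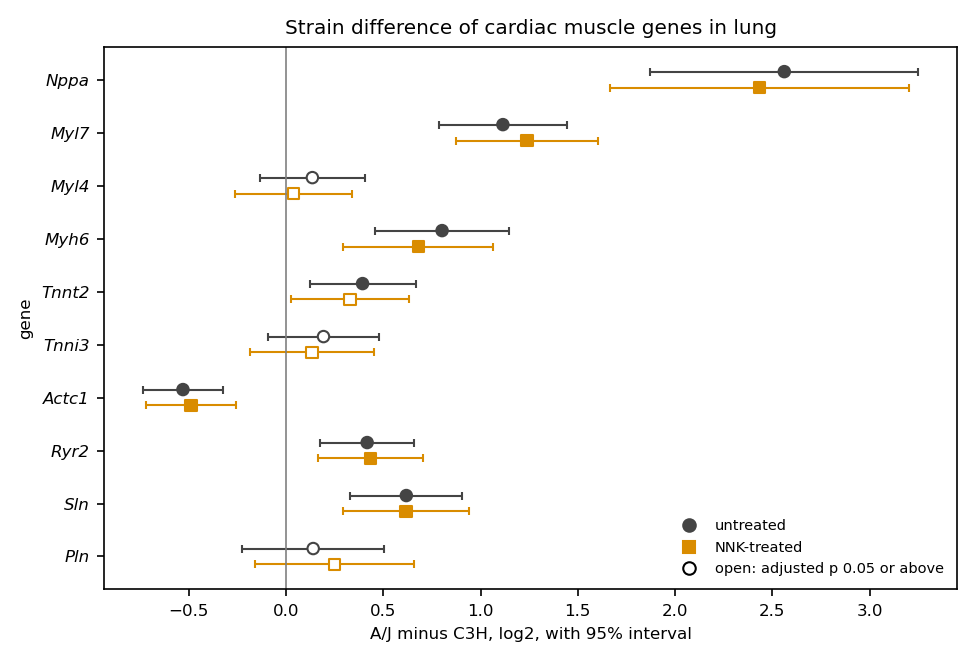
A/J minus C3H (log2, with 95% interval) for each gene, in untreated lung (circles, n = 10 arrays a strain) and in NNK-treated lung (squares, n = 8). Filled symbols passed at an adjusted p under 0.05. Nppa lies farthest to the right at 2.56 and 2.43, and Actc1 is the only gene to the left of 0, at -0.53 and -0.49.

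In the NNK-treated arrays, which are other samples than the untreated ones, 6 of 10 members were called, 5 higher and 1 lower in A/J, where 53.3% of genes tested were called, 23.5% higher and 29.8% lower. These were Nppa, Myl7, Myh6, Sln (0.62 ± 0.16), Ryr2 (0.43 ± 0.13) and Actc1. The ranges of Nppa and Myl7 did not overlap between strains, which held for 15.7% of genes tested, 7.1% with A/J above. Nppa adds no support here either, since all its C3H values after NNK lay below the filter level. Without it 5 of 9 members were called, and 1 of 9 did not overlap. In untreated lung 0 of 10 members were free of overlap, where 10.3% of genes tested were.

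Within a single array, the members stood in different proportion in both strains. Since arrays with high levels of 1 member tended to have high levels of the others, each level was also taken minus the Tnnt2 level of the same array, a measure that shows unequal change but not which gene changed. Actc1 minus Tnnt2 ran from -0.19 to 0.57 over the 18 A/J arrays and from 0.76 to 1.27 over the 18 C3H arrays. Myl7 minus Tnnt2 ran from -0.27 to 0.49 in A/J and from -1.10 to -0.39 in C3H. Neither pair of ranges overlapped, as for 2 of the 9 members and 0.354% of all genes tested. For a gene that does not vary with Tnnt2 this measure carries the spread of Tnnt2 itself, so that share is no measure of what sets the members apart. The ranges of the other 7 members overlapped. Nppa minus Tnnt2 ran from -3.29 to 0.21 in A/J and from -4.75 to -3.26 in C3H, with a narrow overlap. Ryr2 minus Tnnt2 was -2.35 ± 0.11 in A/J and -2.41 ± 0.12 in C3H (SD, n = 18 each). Myl4 minus Tnnt2 was 0.72 ± 0.10 in A/J and 0.99 ± 0.16 in C3H, and Tnni3 minus Tnnt2 -0.38 ± 0.12 and -0.18 ± 0.14. Myh6 minus Tnnt2 was -0.80 ± 0.24 in A/J and -1.19 ± 0.11 in C3H. Sln minus Tnnt2 was -3.05 ± 0.28 and -3.30 ± 0.24, and Pln minus Tnnt2 -1.64 ± 0.28 and -1.47 ± 0.23, so for Sln and Pln the strain means lay about 1 SD apart or less.

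NNK left no called change in any member. In A/J lung 0 of 10 members passed (limma), where 10% of genes tested did, and in C3H 0 of 10, where 0.0803% did. In either strain 0 of 10 members had an unadjusted p under 0.05, where 26.8% of genes tested did in A/J and 6.26% in C3H. Since at least 97.4% of genes tested had a smaller residual SD than any given member, these shares do not show that NNK spared the members. The A/J changes, as the mean of 4 weekly differences, ran from -0.61 ± 0.37 for Nppa (adjusted p = 0.296) to 0.04 ± 0.11 for Actc1, with a median of -0.14. Myh6 had the smallest adjusted p of 0.249, with -0.34 ± 0.19. In C3H the changes ran from -0.28 ± 0.37 for Nppa to -0.004 ± 0.11 for Actc1. The change in A/J minus that in C3H was called for 0 of 10 members, where 1.13% of genes tested were, and 0 of 10 had an unadjusted p under 0.05, where 18.2% did. It ran from -0.33 ± 0.53 for Nppa to 0.05 ± 0.16 for Actc1. The 95% interval of the A/J change was -1.38 to 0.16 for Nppa and -0.40 to 0.33 for Myl7, and both include 0.

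**Figure D2:**
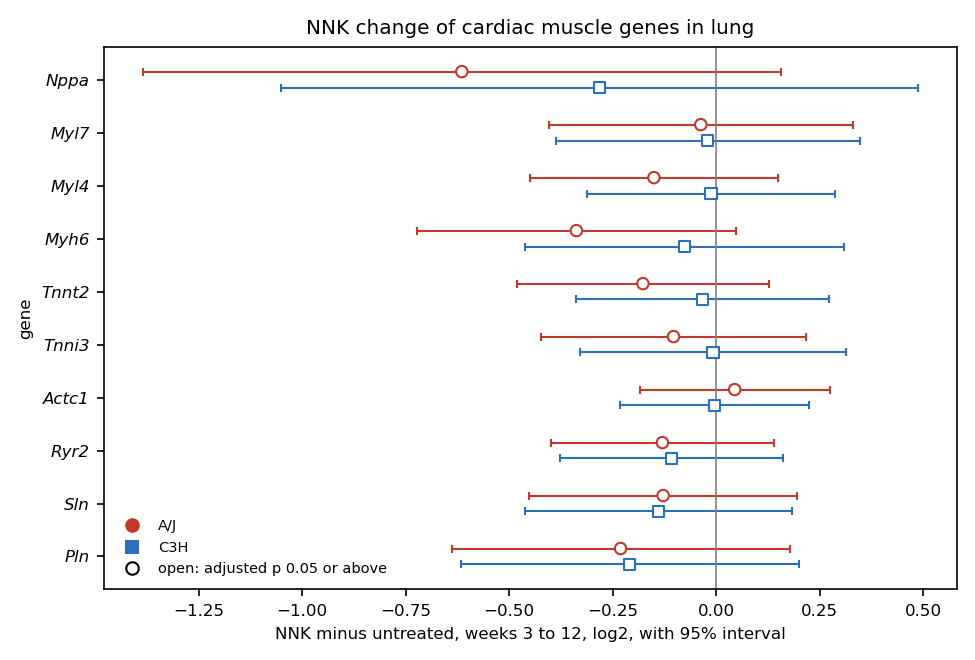
NNK minus untreated (log2, mean of weeks 3 to 12, with 95% interval) for each gene in A/J (circles) and C3H (squares), n = 8 arrays a side. Symbols are open because no member passed at an adjusted p under 0.05, and the intervals of Nppa are the widest.

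In the 8 weekly contrasts of 2 NNK arrays against 2 untreated arrays, 0 members were called in any by limma, and the 1 unadjusted p under 0.05 was that of Nppa in A/J at week 12. Of all genes tested, 0.354%, 7.27%, 1.54% and 0.0736% were called in A/J at weeks 3, 6, 9 and 12, and 0.0936%, 0.0134%, 0% and 0% in C3H. In most weeks the members' differences had the same sign, which changed from week to week. The members vary together between arrays, so equal signs are not 10 separate observations. The median over all genes tested lay between -0.03 (C3H week 3) and 0.03 (A/J week 6). In A/J all 10 were negative at week 6 (median -0.35) and week 12 (median -0.32), all 10 were positive at week 9 (median 0.23), and at week 3 the signs were mixed, with 7 negative and 3 positive (median -0.12). In C3H 9 of 10 were negative at week 3 (median -0.43), all 10 at week 6 (median -0.22), and 9 of 10 were positive at week 9 (median 0.13) and at week 12 (median 0.20). The untreated side of the A/J week 6 contrast was the 2 arrays with high Lor. Nppa in A/J was -1.37 ± 0.74 at week 6 (adjusted p = 0.257) and -1.56 ± 0.74 at week 12 (adjusted p = 0.671). Without array 2 of untreated A/J at week 6, which leaves array 1 with Nppa at 12.40, the week 6 difference of Nppa was -2.70 and called (adjusted p = 0.0448), in a fit that takes the lone array to vary like those of the other groups.

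Across untreated weeks the members varied together, without a called trend. In A/J the lowest group for all 10 members was untreated week 9, and the next lowest was NNK week 9 for 8 of them. Smooth muscle was low there too: the mean level of its 11 markers other than Pln ran from 9.99 to 10.27 in the 4 A/J arrays of week 9 and from 10.20 to 10.61 in the 14 other A/J arrays, and its part in the members' low levels was not tested. Myl7 was at 11.37 and 11.44 in untreated A/J at week 0, at 11.39 and 12.03 at week 3, at 12.13 and 11.77 at week 6, at 10.58 and 11.09 at week 9, and at 12.36 and 12.18 at week 12. Both week 9 values lay below all the others. Nppa was at 9.12 and 9.37 at week 0, at 9.11 and 9.36 at week 3, at 12.40 and 9.74 at week 6, at 7.98 and 8.77 at week 9, and at 11.93 and 11.06 at week 12. The highest A/J group was untreated week 12 for 7 members, untreated week 6 for Tnnt2 and Tnni3, and NNK week 3 for Actc1.

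In C3H the lowest group was untreated week 12 for 7 members, where array 1 was the low one. Myl7 was at 10.61 and 11.10 at week 0, at 10.99 and 10.76 at week 3, at 10.45 and 10.64 at week 6, at 9.81 and 10.84 at week 9, and at 9.43 and 10.55 at week 12. The 2 lowest values came from array 1 of weeks 9 and 12, whose partner arrays were within the range of the earlier weeks. The highest C3H group was week 3 for 5 members, week 0 for 4 and week 12 for Nppa.

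As a straight line over 12 weeks, 0 of 10 members had a called trend in untreated A/J, where 22.8% of genes tested did, and 0 of 10 in untreated C3H, where 0.863% did. The unadjusted p was under 0.05 for 1 member in A/J, Nppa, against 36.8% of genes tested, and for 5 of 10 in C3H, against 12.1%. The C3H trends of the members were all negative, while 7563 of the 14953 genes tested had a positive one. The median over members was -0.56, and Myl7 had -0.91 ± 0.32 (adjusted p = 0.199). With 1 array left out in turn, the C3H trend ranged from -1.36 to -0.46 for Myl7 and from -0.47 to 0.27 for Nppa. The members vary together, so 5 of 10 are not separate observations. The A/J trends ran from -0.26 ± 0.28 for Sln to 1.45 ± 0.67 for Nppa (adjusted p = 0.116). The A/J trend minus the C3H trend was positive for all 10 members, which vary together, and for 10067 of the 14953 genes tested. It was called for 0 members, where 1.32% of genes tested were called. Its unadjusted p was under 0.05 for Myl7, Myh6 and Pln and for 16.8% of genes tested. It was 1.26 ± 0.45 for Myl7 (adjusted p = 0.152) and 1.55 ± 0.94 for Nppa (adjusted p = 0.415).

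**Figure D3:**
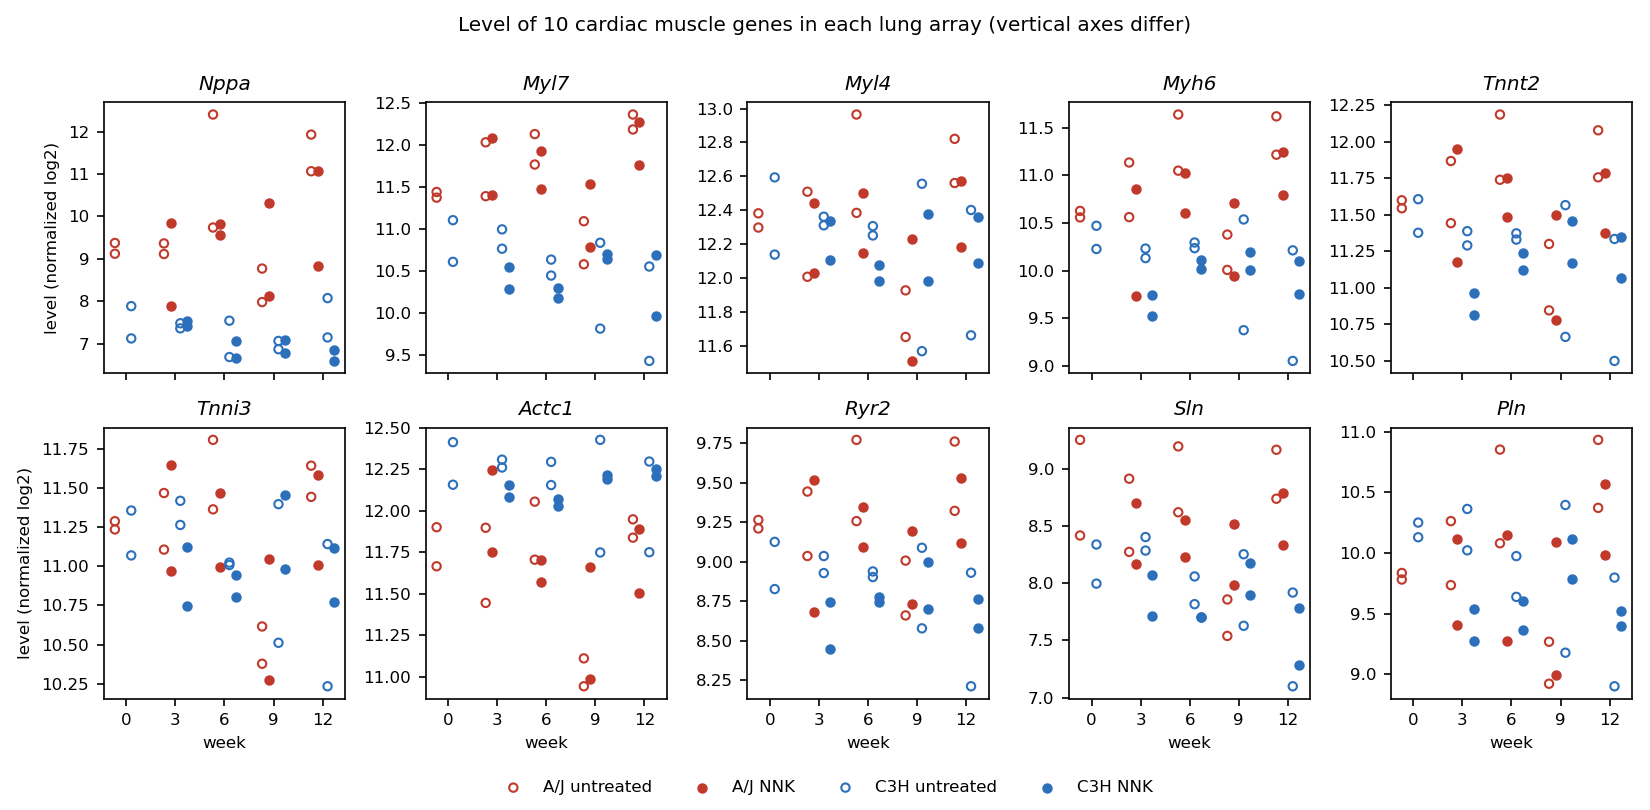
Level (normalized log2) of each gene in every array against week, with its own vertical axis per gene. Open symbols are untreated and filled symbols NNK, red is A/J and blue is C3H, with 2 arrays a group. Nppa and Myl7 show red mostly above blue and Actc1 blue mostly above red, with some overlap, and the untreated A/J arrays of week 9 lie low in all 10 genes.

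The spread between the 2 arrays of a group was large for these genes. The residual SD of the fit was 0.83 for Nppa, 0.44 for Pln, 0.41 for Myh6, 0.39 for Myl7 and 0.24 for Actc1, the smallest of the 10. At least 97.4% of genes tested had a smaller residual SD than any given member, and the median over all genes was 0.0961. Nppa spread most in A/J: its mean difference in size within a pair was 1.27 over 9 A/J pairs and 0.44 over 9 C3H pairs. Its pairs reached 12.40 against 9.74 in untreated week 6, 8.82 against 11.06 in NNK week 12 and 8.13 against 10.32 in NNK week 9. In an exact two-sided permutation test of this size over the 48620 splits of 18 pairs, 0 members and 0% of genes tested passed after Benjamini-Hochberg adjustment. The unadjusted p was under 0.05 for 1281 genes and for 1 member, Nppa (exact p = 0.0342, adjusted 0.554). Since Nppa was dim in C3H, where the log2 scale compresses differences, its spread cannot be compared between the strains by this test. The mean size was larger in A/J for 9 of 10 members, Myl7 being the exception (0.46 against 0.47), and for 74.5% of all genes tested.

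The members varied together within pairs. In 11 of 18 groups all 10 members were higher in the same array of the pair. Array 2 had the higher member median in 14 of 18 groups, among them 4 of 4 A/J groups with NNK. The median difference over members was 0.89 in untreated C3H week 9, 0.87 in untreated C3H week 12, 0.73 in A/J NNK week 9 and 0.70 in A/J NNK week 3, each with array 2 higher. It was -0.55 in untreated A/J week 6, with array 1 higher. In untreated A/J at week 0, 5 members were higher in array 2 and the median was 0.0009, while Sln was higher by 0.84 in array 2, the one with high skeletal muscle genes.

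**Figure D4:**
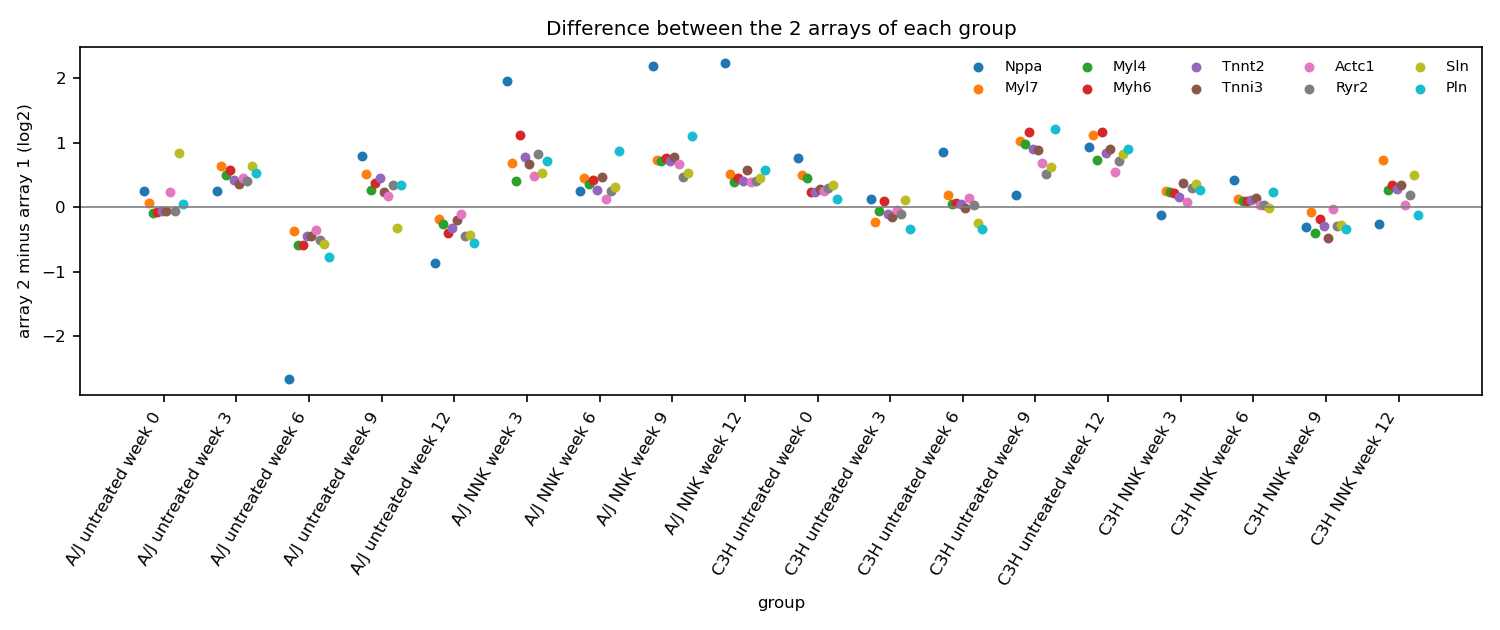
Array 2 minus array 1 (log2) for each gene in each of the 18 groups, 1 point per gene. The points of a group lie mostly on the same side of 0, and in 11 groups all 10 do, and Nppa reaches -2.66, 1.95, 2.18 and 2.24 in 4 A/J groups.

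Pearson's r between members was computed within strains, because the strains form separate clusters for Nppa and Actc1. Over the 45 pairs of members it ran from 0.66 to 0.97 (median 0.88) in the 18 A/J arrays, from 0.18 to 0.98 (median 0.86) in the 18 C3H arrays, and from 0.53 to 0.98 (median 0.89) over the 18 differences between the arrays of a pair. These points share normalization, and arrays of a group may share a source. With Myl7 as the index gene, 17 relations were tested per set of arrays by permutation with 100000 resamples, two-sided, for the 9 other members and 8 markers of other tissues. This test was not run over all genes, so no share of genes passing it can be given. For scale, r over the pair differences was above 0.5 for 9 of 9 members and for 1.98% of all genes measured. Over the pair differences all 9 members passed, from Tnnt2 (r = 0.95, rho = 0.96, permutation p = 1e-05 for both, the smallest possible, adjusted p = 2.83e-05 for r and 3.40e-05 for rho, r = 0.94 without the 2 farthest pairs) to Nppa. Nppa had r = 0.60 (permutation p = 0.00733, adjusted 0.0138) and rho = 0.56 (p = 0.0158, adjusted 0.0268), with r = 0.45 without the 2 farthest pairs. In C3H, where Nppa was dim, it did not follow Myl7 (r = 0.34, permutation p = 0.164, adjusted 0.233; rho = 0.26, p = 0.297, adjusted 0.388; r = 0.39 without 2 arrays). In A/J it did (r = 0.81, permutation p = 6e-05, adjusted 0.000127; rho = 0.86, p = 1e-05, adjusted 2.43e-05; r = 0.76 without 2 arrays). Within a strain the permutation shuffled all 18 arrays freely, although the arrays of a group share week and treatment. The within-strain p-values can therefore be too small.

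**Figure D5:**
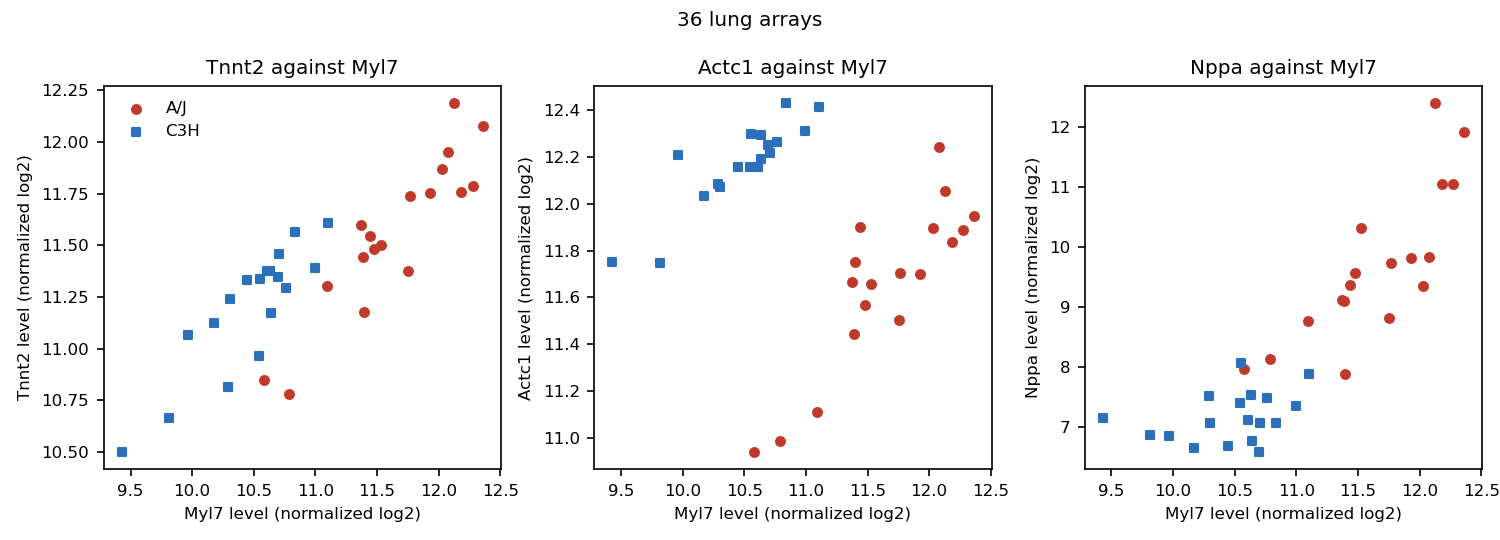
Level of Tnnt2, Actc1 and Nppa against Myl7 (normalized log2), 1 point per array, with A/J as red circles and C3H as blue squares (18 each). Within a strain Tnnt2 and Actc1 climb with Myl7, Actc1 forms a separate cluster per strain, and Nppa climbs with Myl7 in A/J (r = 0.81) and stays low in C3H.

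Markers of other tissues were set beside these differences. The skeletal actin gene Acta1 (r = -0.17, permutation p = 0.529, adjusted 0.642; rho = 0.04, p = 0.869, adjusted 0.869; r = -0.29 without 2 pairs) and the ventricular gene Myl2 (r = -0.11, permutation p = 0.670, adjusted 0.756; rho = -0.09, p = 0.716, adjusted 0.869; r = -0.003 without 2 pairs) did not follow Myl7 over the pair differences. Of the skeletal muscle list 0 of 21 genes had r above 0.5 with Myl7 there, and of the ventricular list 1 of 7 (Lrrc10, r = 0.60). Of the smooth muscle list 1 of 12 did, which was the member Pln itself, and of all genes measured 1.98%. Within the A/J arrays, however, 7 of 12 smooth muscle genes had r above 0.5 with Myl7, against 4.06% of all genes, and within the C3H arrays 4 of 12, against 4.59%. Of the ventricular list 2 of 7 did in each strain, and of the skeletal muscle list 0 of 21 in either. Brown fat genes varied with Myl7 over the pair differences too. Ucp1, the uncoupling protein of brown fat, had r = 0.56 over the pair differences (permutation p = 0.0163, adjusted 0.0277; rho = 0.64, p = 0.00428, adjusted 0.00808) and r = 0.42 without the 2 farthest pairs. Of the 6 measured brown fat markers, 4 had r above 0.5 there, 5 within A/J and 2 within C3H. Their mean level ran from 7.03 to 8.76 in untreated A/J, 7.29 to 9.75 in A/J with NNK, 7.20 to 7.84 in untreated C3H and 7.16 to 7.78 in C3H with NNK. Ucp1 was higher in A/J in untreated lung, by 0.87 ± 0.29 (limma, adjusted p = 0.0124), and in NNK-treated lung, by 2.03 ± 0.32 (adjusted p = 1.32e-05). Its level over the 36 arrays had a mean of 7.62 and a median of 7.22, near the filter level of 7.54. Like Nppa it passed the filter only through A/J, so these p-values add no support. The part of brown fat, smooth muscle or other tissue taken along with the lung in these results was not tested.

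Genes that were not members but belong to the same machinery are given by lists. Of 23 other sarcomere genes measured, 4 were higher and 3 lower in untreated A/J (median 0.03), where 19.8% and 36.3% of genes tested were. Of the 23, 11 had r above 0.5 with Myl7 over the pair differences, against 1.98% of all genes measured. The smallest p belonged to genes that were lower in A/J: Cryab, a small heat shock protein that binds desmin, at -0.36 ± 0.04 (adjusted p = 3.23e-08), and Hspb7, another small heat shock protein, at -1.09 ± 0.14 (adjusted p = 5.09e-07). Csrp3, a Z-disc protein of striated muscle, was higher by 0.51 ± 0.13 (adjusted p = 0.00164). Of 18 genes of calcium handling and excitation tested, 4 were higher and 5 lower (median 0.006), set against the same 19.8% and 36.3%. Popdc2, a membrane protein of heart muscle, was lower (-0.46 ± 0.06, adjusted p = 4.97e-07), and Asph, whose locus also makes junctin, was higher (0.14 ± 0.03, adjusted p = 6.61e-05).

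Of 10 cardiac transcription factor genes tested, 0 were higher and 5 lower in untreated A/J (median -0.14), where 36.3% of genes tested were lower, led by Tbx5 (-0.43 ± 0.04, adjusted p = 8.15e-09) and Hey2 (-0.56 ± 0.06, adjusted p = 2.58e-08), and lung cells other than muscle also express members of this list. Tbx20 alone of the 15 measured had r above 0.5 with Myl7 over the pair differences (r = 0.83). Of 13 genes of energy metabolism in striated muscle, 7 were higher and 0 lower (median 0.16), where 19.8% of genes tested were higher. Cox7a1, a muscle isoform of a cytochrome c oxidase subunit, was higher by 0.80 ± 0.12 (adjusted p = 6.70e-06) and Hadhb, of fatty acid oxidation, by 0.28 ± 0.05 (adjusted p = 3.79e-05). Brown fat expresses several of these too, Cox7a1 among them. Of 5 ventricular markers tested, Myh7 was higher, Nppb was higher by 0.14 ± 0.06 (adjusted p = 0.0382), and Hey2, Myl3 (-0.64 ± 0.13, adjusted p = 0.000178) and Myl2 (-0.17 ± 0.05, adjusted p = 0.00605) were lower.

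After NNK, 1 of 23 other sarcomere genes, 1 of 18 calcium and excitation genes and 2 of 10 transcription factor genes were called in A/J. Of the energy metabolism list 0 of 13 were called, and of all genes tested 10%. The sarcomere gene was Lmod2, an actin filament nucleator (-0.33 ± 0.11, adjusted p = 0.0463). Gja1, the gap junction gene connexin 43, which many lung cells express, was higher after NNK in A/J (0.23 ± 0.06, adjusted p = 0.0121), and the transcription factor genes Mef2c (-0.18 ± 0.05, adjusted p = 0.0169) and Gata4 (-0.21 ± 0.06, adjusted p = 0.0406) were lower. The untreated side of these A/J changes held the week 6 arrays with high Lor. The list genes were not fitted again without them. In C3H 0 genes of the sarcomere, calcium, transcription factor and energy lists were called by limma after NNK, where 0.0803% of genes tested were. An unadjusted p under 0.05 was found for 1 of them and for 6.26% of genes tested.

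The genes whose pattern over the 36 arrays was most like that of the members were ranked by their mean Pearson's r with the 10 members, as a description with no test. Myoz2, a Z-disc protein, led with 0.80, followed by Ckmt2, the mitochondrial creatine kinase of striated muscle (0.78), Srl, sarcalumenin (0.77), Mybphl, a myosin-binding protein (0.75), Casq2, the cardiac calsequestrin (0.75), and Csrp3 (0.75). Then came the potassium channel gene Kcnj3 (0.74), the sarcomeric actinin gene Actn2 (0.74), Smpx (0.73), Txlnb (0.73), the titin gene Ttn (0.73) and the kinase gene Mapk10 (0.72). These r are pooled over both strains and so also carry strain differences, which the members mostly share in direction. Within strains the order differed: Mybphl had 0.903 in A/J and 0.832 in C3H, Myoz2 0.898 and 0.833, and Ttn 0.751 and 0.855.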

How the data were processed

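Total RNA of mouse lung was measured on 36 Affymetrix arrays. The authors deposited 1 linear intensity per probe set and array. Per the submitters' processing notes these values came from PLIER and Affymetrix Expression Console, while versions, background settings, normalization and genome build are not given in the sources used here. Precision is limited by how few arrays a group has. Array medians lay between 285 and 347 and spanned 0.268 on the log2 scale. The intensities were turned to log2(intensity + 16), which understates changes of dim genes, and quantile-normalized. Of 35556 probe sets, 21789 had 1 symbol in the platform annotation, 1621 several and 12146 none there. The brightest probe set was kept for each of 19938 genes, and tests covered the 14953 genes whose mean level reached the 25th percentile, adjusted by Benjamini-Hochberg at 0.05.

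All comparisons came from 1 limma 3.58.1 fit (R 4.3.3) with a mean for each of 18 groups and 18 residual degrees of freedom. Strain differences were averaged over weeks, NNK changes over 4 weekly differences, and trends were linear contrasts over 12 weeks. Permutation tests used Python 3.11.15 with numpy 2.4.6 and pandas 2.3.3. The scripts were tested on simulated data. Of 10 members 9 had a promoter entry, and Sln had none in that table. The probe IDs were matched to symbols through the platform table only, so no coordinates of the files were used.

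The members and the 16 gene lists (190 genes) were chosen with earlier results of these data known. All 10 members are named. Other genes are named as the 12 most like the members, as the list genes with the 2 smallest p in a comparison where a list had calls, or as the 2 brightest markers of ventricle, skeletal and smooth muscle (Myh7, Hey2, Acta1, Tnnt1, Acta2 and Mylk, with mean levels of 10.09, 8.55, 9.85, 9.06, 12.50 and 11.32). Csrp3, Nppb, Myl2, Myl3, Lrrc10, Myl1, Lor, Tbx20, Ucp1 and the lung markers were singled out with their values known, or are markers of the lists. The alternatives tried were no quantile normalization, a pseudocount of 1, no filter or a stricter one (50th percentile), array weights, robust variances with a trend, a block for the array number, the mean over probe sets, each strain's own arrays, another index gene for the correlations and each array left out in turn. Leaving out week 6 with array 2 of untreated A/J at week 0 was added after seeing the data. No 2 arrays held identical values. Same-numbered arrays of a strain and week did not deviate together over all genes tested: r of their deviations ran from -0.20 to 0.22 over 8 pairs of groups.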

Additional observations from a re-analysis of the deposited data

How the results depend on the processing

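The 13 called strain differences of single members kept their direction and call in 112 of 113 values under other settings and in 468 of 468 with 1 array left out. The exception was Tnnt2 in untreated lung without week 6 and array 2 of untreated A/J at week 0 (0.35, adjusted p = 0.0776 by limma). The 13 include both differences of Nppa, which passed the filter only through A/J, so its values add no support here. Leaving out 1 array in turn, 7 to 7 members were called in untreated lung, 6 to 7 in NNK-treated lung, where Tnnt2 gained its call in 7 of 36 fits, 0 to 1 in the weekly contrasts and 0 to 0 in the others. With the replicate block, Tnnt2 passed in NNK-treated lung (0.33, adjusted p = 0.0357 by limma), and the block changed no other call. With Nppa in place of Myl7 as the index gene, 0 of 9 members followed it in C3H, against 8 with Myl7. That test was not run over all genes and shuffled arrays across groups. The other 67 member differences, none of them called, took the opposite sign in 15 of 631 values under other settings and in 125 of 2412 with 1 array left out. Without week 6 and the week 0 array, 11 took the opposite sign: Myl4 between NNK-treated strains (-0.047), Myl7 (0.032) and Sln after NNK in A/J, Actc1 (0.052), Myl7, Myl4, Tnnt2 and Tnni3 after NNK in C3H, which are 5 of the 10 changes there, Ryr2 and Pln in A/J minus C3H, and the A/J trend of Sln (0.070). Without quantile normalization 4 did: Myl7, Sln and Pln in A/J minus C3H and the A/J trend of Ryr2. With 1 array left out, Myl4 ranged from -0.052 to 0.128 between NNK-treated strains, Myl7 from -0.129 to 0.055 and Actc1 from -0.039 to 0.129 after NNK in A/J, Actc1 from -0.089 to 0.081 after NNK in C3H, and the A/J trend of Sln from -0.599 to 0.070. The A/J minus C3H change ranged from -0.665 to 0.00040 for Nppa and from -0.036 to 0.133 for Actc1. The cause was not tested. With the filter at the 50th percentile 8 members were tested, without Nppa and Sln.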
